A study of Mus musculus with 8 samples.

Results

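Dividing cells of the mouse large intestinal epithelium, picked by genes of late cycle phases, were examined in single-cell RNA-seq of colon and cecum. Many of them also held S phase genes, as given below. A cell was taken as dividing when it held at least 500 transcripts and at least 6 of 10 genes of late cycle phases (Top2a, Mki67, Cenpf, Ube2c, Aspm, Nusap1, Kif11, Cenpe, Prc1 and Anln) had a raw count of 1 or more. In the 6 groups used, 1693 of 14840 kept cells met this rule. Over all 32 named samples, 1741 of 15916 kept cells met it. The cells were thus selected on the detection of these 10 genes, whose levels are given as a description and with no test.

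In G2 and mitosis a cell condenses its duplicated chromosomes, builds a spindle, attaches kinetochores to it, separates the sister chromatids and divides into daughters by cytokinesis. Cyclin B with CDK1 drives entry into mitosis, Polo and Aurora kinases order its steps, and the anaphase-promoting complex with CDC20 ends it. In the colon and cecum these divisions take place in the lower crypt, where stem cells and their transit-amplifying offspring replace the differentiated cells lost at the surface.

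The 6 groups were colon of germ-free mice (Colon GF), colon of antibiotic-treated mice (Colon Abx_14D), and cecum of germ-free (Cecum GF), antibiotic-treated (Cecum Abx_14D and Cecum Abx_4D) and control mice (Cecum Ctrl), with 4 numbered samples each. The labels do not say what 4D and 14D stand for, nor do they name the antibiotics, the strain or the age of the mice. Per the labels, cells were pooled by condition and sorted as EPCAM-positive and CD45-negative, with CD44-positive and CD44-negative cells mixed in equal parts. Shares of cycling cells are thus shares of sorted and mixed cells, and the part of the sort in them was not tested. Each of the 8 deposited sublibraries held cells of every condition, and dividing cells were 10.6% to 12.4% of the kept cells in each. No label says that the numbered samples are separate animals. The p-values below therefore rest on how far these samples spread, and that spread may be a technical one.

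Dividing cells numbered 366 of 4215 kept cells in Colon GF, 262 of 3852 in Colon Abx_14D, 214 of 1636 in Cecum GF, 411 of 2296 in Cecum Abx_14D, 246 of 1511 in Cecum Abx_4D and 194 of 1330 in Cecum Ctrl. Each numbered sample held 18 to 187 of them, with 284245 to 4498535 transcripts in sum. Levels below are CPM of these sums (the transcripts of a gene scaled to a common library size), given sample by sample in the order 1 to 4. In 4 cecal samples (Abx_4D 2, Abx_14D 3, Abx_14D 4 and GF 4) the kept cells had a median of over 0.5% mitochondrial transcripts, and gene counts without them are given beside the main ones.

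Most kept cells held few or none of the markers, and a smaller crowd held all of them. Of the kept cells, 5034 held none of the 10 markers, the count fell to 199 cells with 8 of them, and 704 cells held all 10. Around the threshold the change was gradual. The 425 cells with 5 markers, just outside, had a median of 18253 transcripts, and 18.8% of them held a transcript of Ccnb1 (cyclin B1). The 290 cells with 6 markers, just inside, had a median of 18042 transcripts, and 31.0% held Ccnb1. In the 704 cells with all 10 markers 88.8% held Ccnb1, at a median of 32645 transcripts. Cells with more markers were thus also deeper, and how much of the count is depth was not tested.

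**Figure D1:**
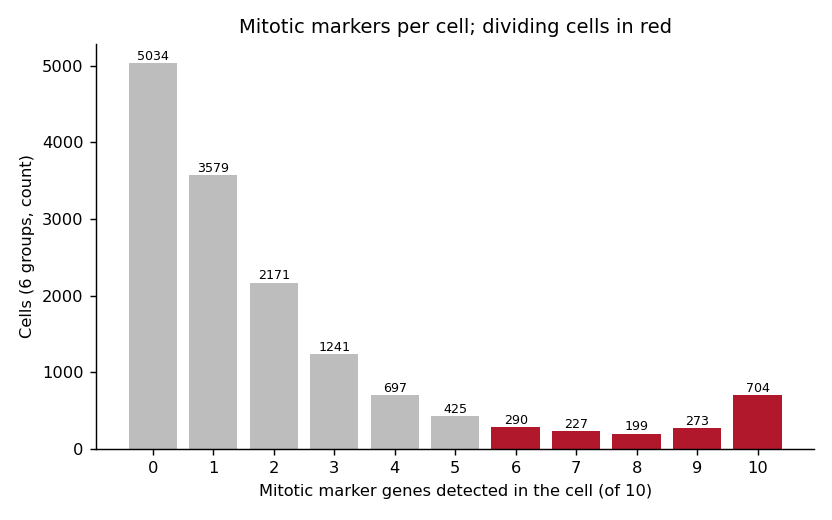
Number of kept cells of the 6 groups (vertical axis, count) by the number of the 10 late-cycle markers detected in the cell (horizontal axis); red bars are the cells taken as dividing. The counts fall to 199 cells with 8 markers and rise to 704 cells with all 10.

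Late-cycle genes that the rule did not name marked the same cells. Ccnb1 was detected in 63.4% of dividing cells and in 3.04% of all other cells. Cdc20, the activator of the anaphase-promoting complex, was detected in 56.9% of dividing cells and in 3.03% of the others. The polo kinase gene Plk1 was found in 57.2% against 5.52%, the kinase gene Aurka in 51.0% against 3.10%, and Cdk1 in 65.5% against 5.67%. Dividing cells were deeper, with a median of 23197 transcripts against 13353 in the other cells. The class nearest in depth was the S phase cells (at least 6 of 10 S phase genes and not dividing, 1386 cells, median 20686 transcripts), in which Ccnb1 was detected in 6.49% and Cdc20 in 5.84%. In noncycling cells that held Lgr5 (at most 1 of the 10 markers, 3035 cells), which were shallower at a median of 12347 transcripts, the shares were 0.956% and 1.12%. As summed levels, which are scaled to library size, 22 genes for mitotic kinases and cyclins reached a mean of 1470 CPM in dividing cells and 186 CPM in the other cells. Selection by detected markers depends on depth, and its part in these levels was not tested.

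The genes that stood out most in dividing cells served chromosome and spindle work. Of 7763 genes with at least 20 CPM in dividing or other cells, the largest ratios belonged to the rule markers Aspm (184 CPM in dividing cells, 3.54 CPM in others) and Anln (153 and 3.58 CPM). Next came Kif14, a kinesin of cytokinesis, with 81.7 CPM in dividing cells and 1.52 CPM in others. Bub1, a spindle checkpoint kinase, had 86.3 CPM in dividing cells and 2.31 CPM in others. Kif14 and Bub1, which the rule did not use, were higher in dividing cells in 24 of 24 samples. At the other end stood Krt20, a keratin of the differentiated surface, with 63.2 CPM in dividing cells and 381 CPM in others. Dclk1, a tuft cell gene, had 11.6 CPM in dividing cells and 98.9 CPM in others. These comparisons describe the cells that the markers picked and were not tested.

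Dividing cells carried epithelial and crypt genes. Epcam was detected in 99.3% of them and Ptprc, which encodes the CD45 used to sort out blood cells, in 0.532%. Lgr5, the receptor gene of crypt stem cells, was detected in 54.9% of dividing cells and 43.1% of the shallower other cells, while its level was 243.7 CPM in dividing cells and 274.9 CPM in others. Summed stem cell and Wnt genes reached 5878 CPM in dividing cells, 5839 CPM in all others and 8597 CPM in noncycling Lgr5 cells. Summed absorptive genes reached 5519 CPM in dividing cells and 11700 CPM in others. Summed goblet genes reached 2608 CPM in dividing cells and 4630 CPM in others.

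Transcripts of goblet genes were detected in many dividing cells, as in the other cells. At least 3 of the 18 goblet markers were detected in 1096 of them (64.7%), against 45.0% of the other cells. Muc2, the gene of the main gut mucin, was detected in 69.4% of dividing cells and in 49.1% of noncycling Lgr5 cells, while its level was 1446 CPM in dividing cells and 2754 CPM in all others. Of the dividing cells, 8 held at least 3 enteroendocrine markers (0.473%, against 0.654% of the others) and 21 held at least 3 tuft markers (1.24% against 2.10%). At least 3 immune markers were found in 18 dividing cells (1.06%, against 0.624% of the others), and at least 3 stromal markers in 2 (0.118% against 0.0532%). The part of depth in these shares was not tested.

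Whether the dividing cells stood at different stages was not tested, but they differed in the mitotic genes detected in them. At least 3 of 5 genes that peak in mitosis (Ccnb1, Cdc20, Plk1, Aurka and Ccnb2) were detected in 993 of them, and 700 held fewer. Genes of DNA synthesis were still common: 506 cells held the mitotic genes together with at least 6 of 10 S phase genes, 487 held the mitotic genes alone, 356 the S phase genes alone, and 344 neither. Median transcripts were 38730 in cells with both sets, 19640 with mitotic genes alone, 23830 with S phase genes alone and 12418 with neither, so the sets also followed depth. In the cells with the mitotic genes, summed spindle genes reached 3833 CPM, against 1898 CPM in the 700 without. DNA replication genes went the other way, with 2180 CPM in cells with the mitotic genes and 3362 CPM in those without. Replication-dependent histones reached 826 CPM with and 479 CPM without the mitotic genes. The share of dividing cells with the mitotic genes ranged from 46.7% (Cecum Ctrl 2) to 72.0% (Cecum GF 2). Among the rule markers, Top2a and Mki67 were also detected in 59.8% and 71.7% of the S phase cells outside the rule. The other markers were detected there in 4.55% (Aspm) to 27.8% (Cenpe).

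Promoters of the marker genes are shown because late-cycle genes are known to be held silent early in the cycle by the DREAM complex at a short element, the cell cycle genes homology region (CHR), often beside CCAAT boxes bound by NF-Y. The 100 bases before the start of 4 rule markers are given 5′ to 3′ on the gene's strand, from RefSeq on GRCm38.p6, an older build than the mm39 used for the counts. Capitals mark the CHR letters TTTGAA and the CCAAT box, each on either strand (read as TTCAAA and ATTGG on the reverse).
Top2a (chr11:99024190-99024289, minus strand): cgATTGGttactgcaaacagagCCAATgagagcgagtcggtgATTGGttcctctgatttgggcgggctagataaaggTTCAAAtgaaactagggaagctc
Ube2c (chr2:164769829-164769928, plus strand): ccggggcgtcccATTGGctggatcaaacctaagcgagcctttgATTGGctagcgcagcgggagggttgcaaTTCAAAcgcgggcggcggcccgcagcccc
Kif11 (chr19:37376282-37376381, plus strand): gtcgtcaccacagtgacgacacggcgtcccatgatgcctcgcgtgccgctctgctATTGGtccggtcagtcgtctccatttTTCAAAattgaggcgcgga
Mki67 (chr7:135716380-135716479, minus strand): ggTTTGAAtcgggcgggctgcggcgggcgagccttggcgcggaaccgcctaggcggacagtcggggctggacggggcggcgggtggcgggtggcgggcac

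In Top2a, Ube2c and Kif11 the CHR letters began 23, 29 and 19 bases before the start, downstream of 3, 2 and 1 CCAAT boxes. In Mki67 they began 98 bases before the start, with no CCAAT box in the 100 bases. Over a window of 100 bases before to 50 after the start, 8 of the 10 rule markers held TTTGAA on either strand, and Cenpe and Nusap1 did not. The same letters stood in 2630 of 32851 promoters in the table (8.01%) and in 9.23% of 27025 genes. They were found in 8 of 16 mitotic kinase and cyclin genes with a promoter in the table, 11 of 22 spindle genes and 10 of 23 kinetochore genes, but in 3 of 36 DNA replication genes (8.33%), 0 of 20 stem cell and Wnt genes and 0 of 23 absorptive genes. The CHR letters also stood in 2 of 9 tuft, 3 of 14 immune and 5 of 24 regional transcription factor genes. The CCAAT box stood in 23.4% of all promoters and 26.3% of genes, in 12 of 16 mitotic kinase and cyclin genes and in 19 of 36 DNA replication genes. Lists outside the cell cycle reached such shares as well, with 12 of 15 cholesterol synthesis and 3 of 4 MHC class II genes. A match in letters is a description and not a bound site.

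Within Abx_14D and within GF, dividing cells took a smaller share of the sorted cells in the colon samples than in the cecal ones. They were 9.40%, 8.14%, 7.64% and 9.50% of kept cells in the Colon GF samples and 7.79%, 5.94%, 6.27% and 5.39% in Colon Abx_14D. In the cecum they were 15.4%, 12.3%, 13.4% and 11.7% in GF, 15.3%, 18.3%, 19.3% and 17.4% in Abx_14D, 15.1%, 9.42%, 22.8% and 13.8% in Abx_4D, and 13.6%, 21.1%, 8.61% and 17.2% in Ctrl. Colon and cecum did not overlap within Abx_14D or within GF, while the Abx_4D and Ctrl samples spread over the whole cecal range.

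The colon share was lower than the cecal one by 11.2 percentage points in Abx_14D and by 4.51 points in GF. Each gave p = 0.0286 in a two-sided exact permutation test over 4 against 4 samples, the smallest p that 70 arrangements allow, and 0.114 after adjustment over the 8 comparisons, so neither passed. Cecum GF averaged 13.2% ± 1.62 and Cecum Abx_14D 17.5% ± 1.69 (SD, n = 4 each), and Colon GF 8.67% ± 0.923 against 6.35% ± 1.03 in Colon Abx_14D (both exact permutation p = 0.0571, adjusted 0.114). Against Cecum Ctrl (15.1% ± 5.30), Abx_4D differed by 0.166 points (exact permutation p = 0.971), Abx_14D by 2.42 points (p = 0.457) and GF by -1.94 points (p = 0.486). Cells with at least 5000 transcripts were also thinned to 5000 each, and shallower cells were left out. Left out were 601 of 4215 kept cells in Colon GF, 597 of 3852 in Colon Abx_14D, 250 of 1636 in Cecum GF and 338 of 2296 in Cecum Abx_14D. Among the thinned cells, a deeper set, the shares were 5.95% ± 1.88 in Colon GF, 4.68% ± 0.841 in Colon Abx_14D, 8.73% ± 1.10 in Cecum GF and 13.4% ± 3.17 in Cecum Abx_14D. In these thinned cells the colon and cecum of GF overlapped (exact permutation p = 0.0857).

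**Figure D2:**
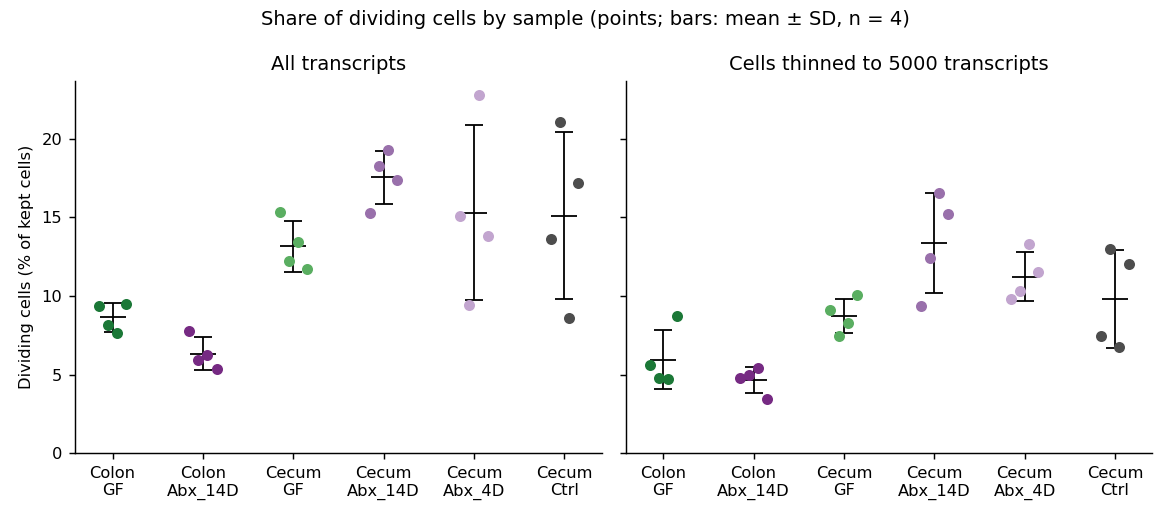
Dividing cells as a percentage of cells in each numbered sample (points), with group means and SD (bars, n = 4). The left panel uses all kept cells and all transcripts. The right panel uses only cells with at least 5000 transcripts, thinned to 5000. The colon samples lie between 5.39% and 9.50% from all transcripts, below all Cecum GF and Cecum Abx_14D samples.

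Whether the missing or reduced microbiota changed the genes of dividing cells was asked first in the cecum, where control samples were at hand. Antimicrobial and MHC class II genes were among those that fell, while no mitotic kinase or cyclin gene passed the test. With edgeR's quasi-likelihood test and Benjamini-Hochberg adjustment at 0.05, 20 of 11059 genes passed between Abx_4D and Ctrl (0.181%, 4 higher and 16 lower). Between Abx_14D and Ctrl 110 passed (0.995%, 21 higher and 89 lower), and between GF and Ctrl 295 passed (2.67%, 99 higher and 196 lower). Without the 4 mitochondria-high samples, 45 passed for Abx_14D and 188 for GF. Without Abx_14D 3 alone, 72 passed for Abx_14D. These 3 comparisons share the Ctrl samples, so their values stand side by side and their likeness is no result.

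None of the 22 mitotic kinase and cyclin genes passed in any of the 3 comparisons with Ctrl by edgeR's quasi-likelihood test. In GF 21 of the 22 changes were negative, with a median of -0.41 on the log2 scale, while in Abx_14D and Abx_4D 10 of the 22 were negative, with medians of 0.04 and 0.05. At an unadjusted p under 0.05 there were 0 in Abx_4D, 1 in Abx_14D and 7 in GF, and DESeq2 and limma-voom called 0 in each. Ccnb1 stood at 72.1, 70.7, 73.5 and 49.6 CPM in Cecum GF, 65.7, 80.5, 98.0 and 89.3 CPM in Abx_14D, 90.1, 70.4, 53.5 and 95.1 CPM in Abx_4D, and 47.1, 64.8, 90.5 and 106 CPM in Ctrl. The groups overlapped throughout. The log2 change of Ccnb1 was -0.23 ± 0.23 in GF, 0.10 ± 0.23 in Abx_14D and -0.02 ± 0.24 in Abx_4D (± SE). Cdc20 changed by -0.07 ± 0.26, 0.40 ± 0.26 and 0.28 ± 0.27 in the same order.

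In germ-free cecum other lists of the cell cycle had negative medians as well, with few of their genes past the threshold. All 45 DNA replication genes had a negative change in GF against Ctrl, with a median of -0.61 on the log2 scale, while the median over all tested genes was 0.00. Only 3 of the 45 passed (Cdt1, Prim1 and Gins1), DESeq2 called 8 and limma-voom 2, and none of the 3 passed without the mitochondria-high samples. In summed level these genes reached 2203 ± 536 CPM in GF and 3297 ± 716 CPM in Ctrl (SD, n = 4 each), with ranges that overlap (1719 to 2715 CPM in GF, 2420 to 4163 CPM in Ctrl). Kinetochore genes were negative in 26 of 27 (median -0.41) with 1 past the threshold, Ska2, and spindle genes had a median of -0.36 with 1 of 25 past it, Tacc3. Neither passed without the mitochondria-high samples. Condensin, cohesin and chromatin genes had a median of -0.34 with 1 of 24 past it. Over all genes 2.67% passed in GF against Ctrl, so the shares of the kinetochore, spindle and condensin lists are near that of all genes. Of the 10 rule markers, whose detection selected the cells, 9 were negative (median -0.23), which is a description only.

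Smc2, a condensin subunit that compacts mitotic chromosomes, was the 1 gene of these lists that also passed without the mitochondria-high samples (change -0.69, adjusted p = 0.0369). It had 221, 217, 239 and 198 CPM in Cecum GF, against 372, 334, 384 and 373 CPM in Ctrl. The groups did not overlap, and Smc2 fell by 0.74 ± 0.16 on the log2 scale (adjusted p = 0.0112 by edgeR's quasi-likelihood test). Without the deepest 5% of dividing cells of each sample the change was -0.52 and the adjusted p 0.061. The same dividing cells were deeper in GF than in Ctrl, with means over samples of the median of 32258 and 21506 transcripts. Cells reach 6 detected markers more easily when they are deeper, and the part of depth in these small differences was not tested.

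Several antimicrobial genes fell by larger amounts. Reg3b and Reg3g are closely related genes for C-type lectins that bind bacteria, and how reads were shared between such near copies is not given. Reg3b stood at 0, 0, 0.266 and 0.477 CPM in Cecum GF, at 0, 0, 0.222 and 0 CPM in Abx_14D and at 0 CPM in all 4 Abx_4D samples, against 13.1, 74.6, 127 and 187 CPM in Ctrl. Every Ctrl sample lay far above every other cecal sample. With 0 counts in Abx_4D against 628 in Ctrl, Reg3b was at least 277-fold lower, taking 3 counts over the group as the floor. Abx_14D held 1 count, a ratio of 1429 (95% counting interval 256 to 56522), and GF held 2, a ratio of 575 (158 to 4755). These intervals cover counting error only.

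Duox2, the epithelial oxidase that releases hydrogen peroxide, stood at 10.9, 6.06, 3.996 and 4.77 CPM in Cecum GF, 1.46, 4.22, 0.889 and 5.58 CPM in Abx_14D, 13.5, 7.04, 10.3 and 2.99 CPM in Abx_4D and 120.2, 152, 38.0 and 76.2 CPM in Ctrl. No sample of the other groups reached the lowest Ctrl sample. Its log2 change was -3.98 ± 0.47 in GF (adjusted p = 3.94e-05), -5.05 ± 0.50 in Abx_14D (8.73e-06) and -3.48 ± 0.48 in Abx_4D (0.00105). Nos2, which makes nitric oxide, fell by 4.82 ± 0.63 in Abx_14D (adjusted p = 0.000149) and was down to 1 count against 213 in GF, a ratio of 390 (95% counting interval 69.2 to 15467). In Abx_4D its change of -2.12 ± 0.53 did not pass (adjusted p = 0.144). In all, 6 of 9 antimicrobial and oxidase genes fell in GF and in Abx_14D and 3 of 9 in Abx_4D, with list medians of -3.48, -3.85 and -3.13 and none higher. Without the mitochondria-high samples the counts were 5, 4 and 3. Over all genes 2.67% passed in GF, 0.995% in Abx_14D and 0.181% in Abx_4D.

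Plet1, an epithelial surface protein, and Fut2, which adds the terminal fucose of gut mucins, moved the same way. Plet1 had 0.572, 1.52, 0 and 0.477 CPM in Cecum GF, 0.973, 1.76, 0.667 and 0.798 CPM in Abx_14D, 7.21, 3.52, 2.84 and 3.59 CPM in Abx_4D, and 102, 75.9, 23.6 and 35.3 CPM in Ctrl. Again Ctrl did not overlap with any group. Plet1 fell by 6.63 ± 0.60 in GF (adjusted p = 2.13e-06), 5.77 ± 0.53 in Abx_14D (5.05e-06) and 3.86 ± 0.50 in Abx_4D (0.000606) on the log2 scale. Fut2 fell by 2.61 ± 0.29 in GF, 2.57 ± 0.28 in Abx_14D and 1.78 ± 0.29 in Abx_4D (adjusted p = 2.22e-05, 2.55e-05 and 0.00715). Of 14 glycosylation and surface genes, 4 fell in GF, 5 in Abx_14D and 3 in Abx_4D, and none rose past the threshold. The medians of the 14 were -0.42, -0.45 and -0.45. Without the mitochondria-high samples 6, 5 and 3 passed. The shares of all genes that passed were 2.67%, 0.995% and 0.181%.

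MHC class II genes, which encode the molecules that show peptides to CD4 T cells, fell in germ-free and Abx_14D cecum. Cd74, the invariant chain of class II, had 6.86, 2.53, 2.66 and 2.86 CPM in Cecum GF, 43.3, 32.7, 26.9 and 23.9 CPM in Abx_14D, 272, 28.1, 176 and 105 CPM in Abx_4D and 276, 331, 227 and 341 CPM in Ctrl. GF lay below Abx_14D and Abx_14D below Ctrl with no overlap, while Abx_4D ranged from the level of Abx_14D to that of Ctrl. Cd74 fell by 6.37 ± 0.47 in GF (adjusted p = 2.26e-07) and by 3.23 ± 0.37 in Abx_14D (3.37e-05), and its change of -0.94 ± 0.34 in Abx_4D did not pass (0.492). H2-Ab1, a class II beta chain, fell by 6.47 ± 0.55 in GF and by 3.11 ± 0.38 in Abx_14D.

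Of 7 class II genes tested, 6 fell in GF and 6 in Abx_14D (6 and 5 without the mitochondria-high samples), and none passed in Abx_4D (4 at an unadjusted p under 0.05, none by DESeq2 or limma-voom). Over all genes 2.67% passed in GF, 0.995% in Abx_14D and 0.181% in Abx_4D. The immune marker list reached 43.8 CPM in sum in GF, 34.7 in Abx_14D, 43.2 in Abx_4D and 51.7 in Ctrl, with 6 of its 20 genes at 0 in dividing cells.

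Between the 2 antibiotic groups, 4 of 11059 genes passed (0.0362%), and all 4 were class II genes: Cd74, H2-Ab1, H2-Eb1 and H2-Aa. H2-Eb1 fell by 2.66 ± 0.42, H2-Ab1 by 2.41 ± 0.39 and Cd74 by 2.29 ± 0.36 in Abx_14D against Abx_4D (adjusted p = 0.0165 for each by edgeR's quasi-likelihood test). H2-Aa fell by 2.93 ± 0.48 (adjusted p = 0.018). No gene passed without Abx_4D 1, Abx_4D 3, Abx_14D 3 or Abx_14D 4, or without the mitochondria-high samples, and 2 passed without Abx_14D 1. Between GF and Abx_14D, 6 genes passed (0.0543%): Cd74 (-3.14 ± 0.49, adjusted p = 0.0313), Pvt1, Fer1l6, Ifi47, Pdgfd and Ifitm3. None passed without Abx_14D 1, Abx_14D 3, GF 2 or GF 4, 1 passed without Abx_14D 4 and 2 without GF 3.

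Interferon-response and MHC class I genes fell in germ-free cecum. Irf1, an interferon-induced transcription factor, had 39.5, 54.6, 50.9 and 30.0 CPM in Cecum GF, against 128, 101, 111 and 109 CPM in Ctrl. The groups were clearly apart, and Irf1 fell by 1.35 ± 0.21 (adjusted p = 0.000837). Irgm2, an interferon-induced GTPase, fell by 2.74 ± 0.44 (adjusted p = 0.00134). Psmb8, an immunoproteasome subunit that cuts peptides for class I, had 3.43, 2.53, 1.86 and 2.38 CPM in GF against 26.1, 26.2, 26.2 and 31.2 CPM in Ctrl, and fell by 3.46 ± 0.46 (0.000171). B2m, the common chain of class I, fell by 1.35 ± 0.19 (0.000313).

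Of 29 interferon-response genes, 11 fell in GF, all 29 changes were negative and the median was -1.07. Of 12 class I genes, 8 fell, while 2.67% of all genes passed in GF. Without the mitochondria-high samples 9 of the 29 and 10 of the 12 passed. In Abx_14D none of the 29 passed (7 at an unadjusted p under 0.05, and 1 each by DESeq2 and limma-voom) and 2 of the 12 class I genes fell, none of them without the mitochondria-high samples. In Abx_4D no interferon gene passed (5 at an unadjusted p under 0.05, none by DESeq2 or limma-voom). Between GF and Abx_14D themselves none of the 29 passed (16 at an unadjusted p under 0.05, 1 by DESeq2, none by limma-voom).

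Fewer genes were higher than lower in each of these comparisons with Ctrl. Mt2, a metallothionein that binds zinc and copper, had 144, 407, 233 and 295 CPM in Cecum GF, 189, 203, 213 and 325 CPM in Abx_14D, 192, 88.0, 116 and 290.1 CPM in Abx_4D and 23.5, 5.89, 26.2 and 25.2 CPM in Ctrl. All 12 samples of the other groups lay above all Ctrl samples. Mt2 rose by 3.78 ± 0.42 in GF (adjusted p = 2.22e-05), 3.56 ± 0.42 in Abx_14D (4.77e-05) and 3.17 ± 0.42 in Abx_4D (0.000731) on the log2 scale.

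Tfrc, the transferrin receptor through which cells take up iron, had 989, 879.8, 1307 and 1026 CPM in Cecum GF, 1316, 1618, 1230 and 1561 CPM in Abx_14D, 1436, 647, 1316 and 1602 CPM in Abx_4D and 659, 374, 448 and 597 CPM in Ctrl. Only Abx_4D 2, at 647 CPM, fell into the range of Ctrl. Tfrc rose by 1.46 ± 0.23 in Abx_14D (adjusted p = 0.00193). Its rise of 1.02 ± 0.23 in GF (0.0182) missed the threshold without GF 3 (0.073), Ctrl 2 (0.057) or Ctrl 3 (0.063), and that of 1.28 ± 0.23 in Abx_4D (0.0153) missed it without Abx_4D 1, 3 or 4 or Ctrl 2 or 3. Apob, an apolipoprotein of lipid export, rose by 1.59 ± 0.26 in GF (0.00147). Pcdh17, a protocadherin, rose by 1.64 ± 0.28 in GF and by 2.45 ± 0.28 in Abx_14D.

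**Figure D3:**
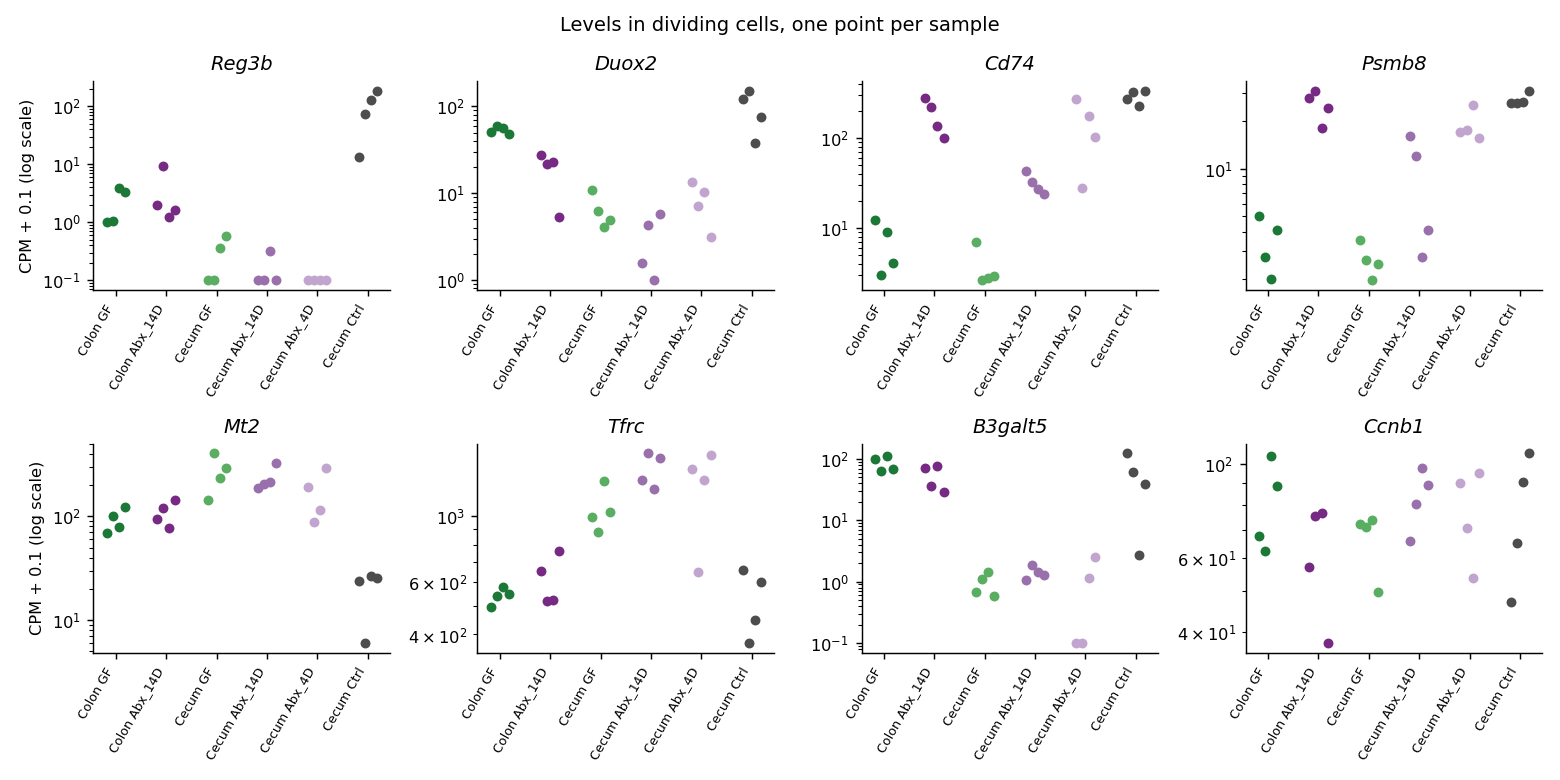
Levels of 8 genes in dividing cells, 1 point per numbered sample, on a log axis of CPM + 0.1. Reg3b, Duox2 and Cd74 are high in all 4 Cecum Ctrl samples, Mt2 is low in them, B3galt5 is high in the colon and low in Cecum GF and Cecum Abx_14D, and the points of Ccnb1 overlap across the groups.

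In the colon, where dividing cells of GF and Abx_14D could be compared, the interferon-response genes were much lower in GF. Of 10119 genes, 49 passed (0.484%), 5 higher and 44 lower in GF, and 31 passed without Colon GF 2. Oasl2, an interferon-induced gene of the OAS family, had 4.66, 2.42, 2.53 and 3.97 CPM in Colon GF, against 62.3, 61.9, 37.2 and 67.7 CPM in Colon Abx_14D. The groups lay far apart, and Oasl2 fell by 4.05 ± 0.28 on the log2 scale (adjusted p = 2.82e-05 by edgeR's quasi-likelihood test). Oas2, which makes the activator of RNase L, had 0 counts in GF against 105 in Abx_14D and was at least 55.9-fold lower against the floor of 3 counts. Parp14 fell by 1.72 ± 0.16 and Irgm2 by 2.92 ± 0.36 (adjusted p = 0.00017 and 0.00115).

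Of 25 interferon-response genes tested in the colon, 18 fell, all 25 changes were negative and the median was -1.74. DESeq2 called 23 of them and limma-voom 16. Among all genes 0.484% passed. Of 12 MHC class I genes 7 fell, among them Psmb8 by 2.86 ± 0.30 and B2m by 1.53 ± 0.15 (adjusted p = 0.000313 and 0.00025). Irf1 (-0.47, adjusted p = 0.42) did not pass. Of 3 class II genes tested, 2 fell. Cd74 had 12.3, 2.90, 8.86 and 3.97 CPM in Colon GF, against 282, 226, 136 and 99.98 CPM in Colon Abx_14D. It fell by 4.68 ± 0.43 (adjusted p = 0.00017), and H2-Ab1 fell by 4.74 ± 0.60 (0.00178).

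Rora and St6gal1 were higher in germ-free colon, also when any 1 sample was left out. Rora, a nuclear receptor of the ROR family, had 102, 195, 170.2 and 142 CPM in Colon GF, against 28.5, 12.6, 30.4 and 13.5 CPM in Colon Abx_14D. It rose by 2.80 ± 0.29 (adjusted p = 0.000274). St6gal1, a sialyltransferase, rose by 2.63 ± 0.41 (0.00901). None of the 22 mitotic kinase and cyclin genes passed between the colon groups (1 at an unadjusted p under 0.05, none by DESeq2 or limma-voom), and Ccnb1 changed by 0.39 ± 0.23.

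The GF change was not shown to differ between the tissues. A test of the change of GF against Abx_14D in the colon minus that in the cecum, chosen after the separate comparisons had been seen, passed for 0 of 11234 genes (0%), with 850 at an unadjusted p under 0.05, and no other tool was run on it.

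**Figure D4:**
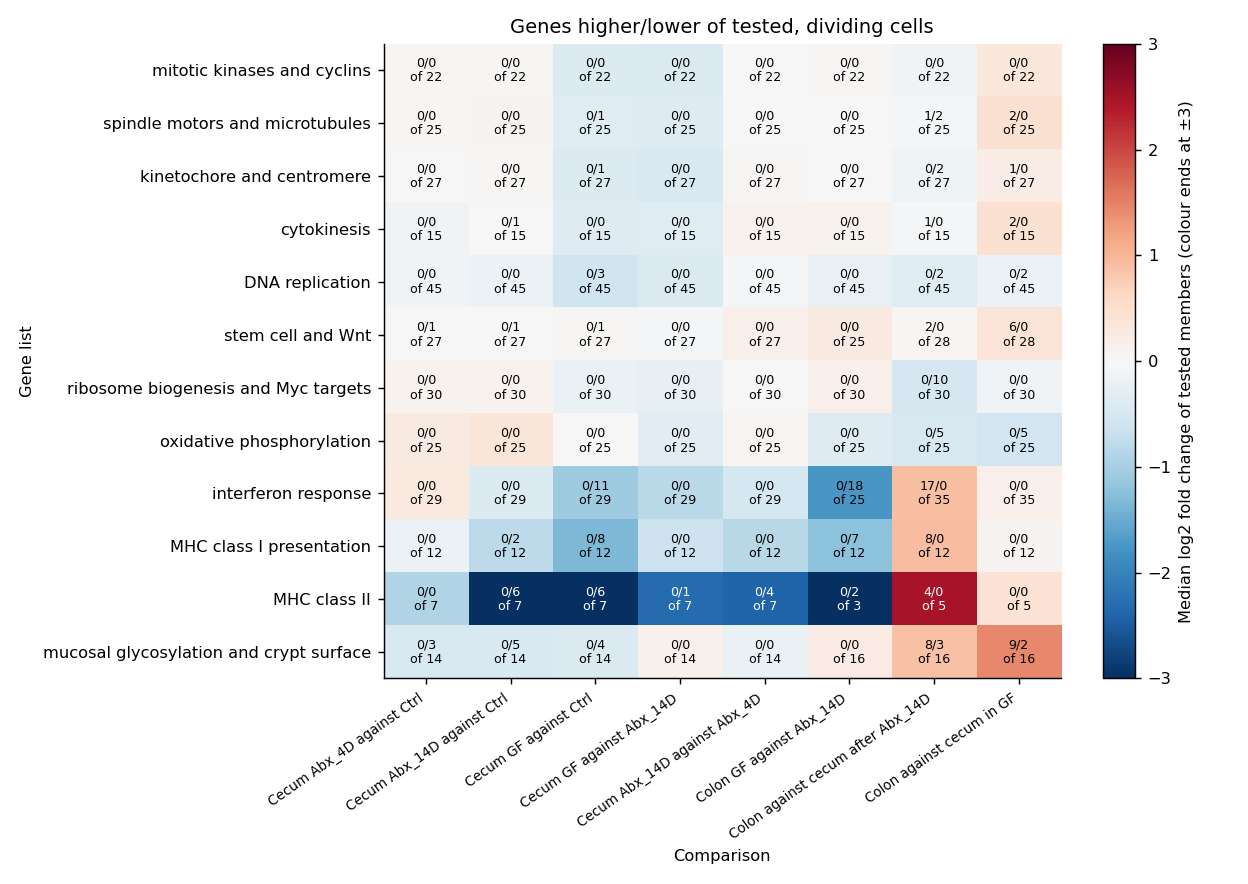
Gene lists (rows) by comparison (columns) in dividing cells. Each field gives how many genes passed higher/lower of those tested, and its colour the median log2 fold change (colour ends at ±3). MHC class II is deep blue for Cecum GF and Cecum Abx_14D against Ctrl and for Colon GF against Abx_14D, and the mitotic kinases and cyclins are pale and at 0/0 of 22 throughout.

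Colon and cecum differed most. In Abx_14D 1287 of 11234 genes passed between colon and cecum (11.5%, 712 higher and 575 lower in colon), and in GF 958 passed (8.53%, 575 higher and 383 lower). Without the mitochondria-high samples 549 passed in Abx_14D. The 2 comparisons share no sample. Both called 545 genes, which were 42.3% of the Abx_14D list and 56.8% of the GF list, and 544 of them had the same direction (354 higher and 190 lower in colon). The exception was Pvt1, a long noncoding RNA gene next to Myc, at -1.14 in Abx_14D and 1.36 in GF.

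Posterior Hox genes separated the dividing cells of the tissues. Hoxb13, a homeobox gene of the hindgut's posterior end, had 24.9, 21.8, 40.5 and 15.9 CPM in Colon GF, against 0.572, 0, 1.07 and 0 CPM in Cecum GF. It had 34.9, 25.9, 65.3 and 20.3 CPM in Colon Abx_14D, against 0, 0, 0.222 and 0 CPM in Cecum Abx_14D. The tissues did not overlap, with a log2 difference of 5.52 ± 0.57 in GF (adjusted p = 2.7e-06) and a ratio of 410 in Abx_14D (95% counting interval 72.9 to 16264), where the cecum held 1 count. Of 28 regional transcription factor genes, 5 were higher and 0 lower in the colon in GF, and 4 were higher and 1 lower in Abx_14D. Over all genes 8.53% passed in GF and 11.5% in Abx_14D. The counts were 4 in GF and 5 in Abx_14D without the mitochondria-high samples. Hoxa13, Hoxb13, Hoxd11 and Hoxd13 were higher in both.

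Several glycan-building enzymes differed between the tissues. B3galt5, a galactosyltransferase, had 100.4, 63.1, 110.1 and 68.2 CPM in Colon GF, against 0.572, 1.01, 1.33 and 0.477 CPM in Cecum GF. It was higher in the colon by 6.45 ± 0.41 in GF and 5.26 ± 0.38 in Abx_14D (adjusted p = 1.12e-08 and 5.94e-08). Cecum Ctrl, at 124, 61.5, 2.62 and 38.6 CPM, reached the colon's level in some samples. St6galnac6, a sialyltransferase, was higher in the colon by 3.65 ± 0.30 and 4.20 ± 0.32, while St3gal5, the GM3 ganglioside synthase, was lower by 3.95 in GF and 4.04 in Abx_14D. Fut2 and Duox2 were higher in the colon as well, Fut2 by 2.60 ± 0.25 and 2.25 ± 0.25 and Duox2 by 3.13 ± 0.40 and 2.76 ± 0.47, in GF and Abx_14D. Of 16 glycosylation and surface genes, 9 were higher and 2 lower in GF, and 8 were higher and 3 lower in Abx_14D. Over all genes 8.53% passed in GF and 11.5% in Abx_14D. Of the 16, 10 in GF and 9 in Abx_14D passed when the mitochondria-high samples were left out.

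Some crypt genes were higher in germ-free colon and some absorptive genes lower. Axin2, a target of Wnt signalling, had 206, 221, 205 and 187 CPM in Colon GF, against 168, 99.0, 103 and 71.5 CPM in Cecum GF. The samples did not overlap, and Axin2 was higher in the colon by 0.90 ± 0.20 (adjusted p = 0.00516). Sox9, a crypt transcription factor, was higher by 0.66 ± 0.15 (0.00874). Of 28 stem cell and Wnt genes 6 were higher and 0 lower in GF, and 2 passed without the mitochondria-high samples, against 8.53% of all genes in the whole comparison. In Abx_14D 2 of the 28 were higher, a share below the 11.5% of all genes. Lgr5 itself did not pass (-0.17 ± 0.38 in GF and -0.36 ± 0.38 in Abx_14D).

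Car1, the carbonic anhydrase of absorptive cells, was lower in the colon by 3.75 ± 0.59 in GF (adjusted p = 0.000252). Of 26 absorptive genes 9 were lower there and 1 higher, against 8.53% of all genes (8 of the 26 passed without the mitochondria-high samples). The one higher was Slc5a8, a monocarboxylate transporter that also carries nicotinate, which was higher in the colon by 0.98 ± 0.23 in GF and 1.70 ± 0.23 in Abx_14D (adjusted p = 0.00811 and 5.83e-05). Nmnat2, an enzyme of NAD synthesis, was lower by 2.38 ± 0.28 and 2.56 ± 0.31. These were the 2 genes of 19 in the nicotinic acid and NAD list that passed in either tissue comparison. That share is near the share of all genes that passed, 8.53% in GF and 11.5% in Abx_14D. Creb3l1, a secretory-cell transcription factor, was higher in the colon by 1.71 ± 0.20 in GF and 1.40 ± 0.20 in Abx_14D.

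Some interferon-response genes and Cd74 were higher in the colon in Abx_14D. Antimicrobial and oxidase genes passed between the tissues in both conditions, 3 of 7 in GF and 3 of 7 in Abx_14D (2 and 1 without the mitochondria-high samples). Of 35 interferon-response genes 17 were higher in the colon and none lower there, against 11.5% of all genes that passed (median 0.91, and 7 passed without the mitochondria-high samples). In GF none passed, against 8.53% of all genes (4 at an unadjusted p under 0.05, 1 by DESeq2, none by limma-voom). Of 12 MHC class I genes 8 passed in Abx_14D, 1 without the mitochondria-high samples, and none passed in GF. Oasl2 had 62.3, 61.9, 37.2 and 67.7 CPM in Colon Abx_14D, against 22.9, 27.8, 8.67 and 1.99 CPM in Cecum Abx_14D, a difference of 1.94 ± 0.43 (adjusted p = 0.00483) with no overlap. Cd74 was higher in the colon by 2.58 ± 0.34 in Abx_14D (3.91e-05), and its difference of 1.04 ± 0.53 in GF did not pass (0.265). Whether these tissue differences differ between GF and Abx_14D is the same test as above, which no gene passed.

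Some growth genes were lower in the colon in Abx_14D. Of 30 ribosome biogenesis and Myc target genes 10 were lower and none higher (median -0.50), among them Hspd1, a mitochondrial chaperonin, by 0.83 ± 0.16 and Eif5a, a translation factor, by 1.13 ± 0.22 (adjusted p = 0.00126 and 0.00169). Ccng1, a p53 target, had 75.7, 58.6, 63.1 and 73.7 CPM in Colon Abx_14D, against 129, 98.7, 179 and 191 CPM in Cecum Abx_14D. It was lower in the colon by 1.13 ± 0.21 (0.00118), and 4 of 27 DNA damage genes were lower, a share near the 11.5% of all genes that passed. Without Abx_14D 3 and 4, the 2 cecal samples high in mitochondrial transcripts, 2 of the 30 and 1 of the 27 passed, and which of these differences follow the sample quality was not tested.

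Between the tissues the lists of the mitotic machinery had 0 to 3 genes each past the threshold. None of the 22 kinases and cyclins passed in Abx_14D (3 at an unadjusted p under 0.05, none by DESeq2 or limma-voom) or in GF (7 at an unadjusted p under 0.05, 1 by DESeq2, none by limma-voom). In Abx_14D, 3 of 25 spindle, 2 of 27 kinetochore and 1 of 15 cytokinesis genes passed, against 11.5% of all genes. In GF, 2 of 25 spindle, 1 of 27 kinetochore and 2 of 15 cytokinesis genes passed, against 8.53% of all genes. Without the mitochondria-high samples 1 spindle gene in Abx_14D and 1 kinetochore gene in GF passed. Knstrn, a kinetochore adaptor of the spindle, had 117, 131, 125 and 109.5 CPM in Colon GF, against 80.1, 77.8, 77.8 and 60.5 CPM in Cecum GF. It was higher in the colon by 0.70 ± 0.16 (adjusted p = 0.00808), with no overlap, and its difference in Abx_14D of 0.40 did not pass (0.129). Rrm2, which supplies deoxynucleotides for replication, was lower in the colon by 0.92 ± 0.25 in GF and 1.19 ± 0.25 in Abx_14D. In GF the call was lost without Cecum GF 1 or 3 or Colon GF 2 or 3, and in Abx_14D without the mitochondria-high samples. Fewer colon than cecal dividing cells held at least 6 S phase genes, with means of 39.5% in Colon GF against 59.7% in Cecum GF and 42.6% in Colon Abx_14D against 57.2% in Cecum Abx_14D (both exact permutation p = 0.0286, adjusted 0.114, no overlap). Among the dividing cells with at least 5000 transcripts, thinned to 5000, these shares were 7.13% against 10.3% and 9.40% against 12.1%. The samples overlapped (both exact permutation p = 0.257).

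**Figure D5:**
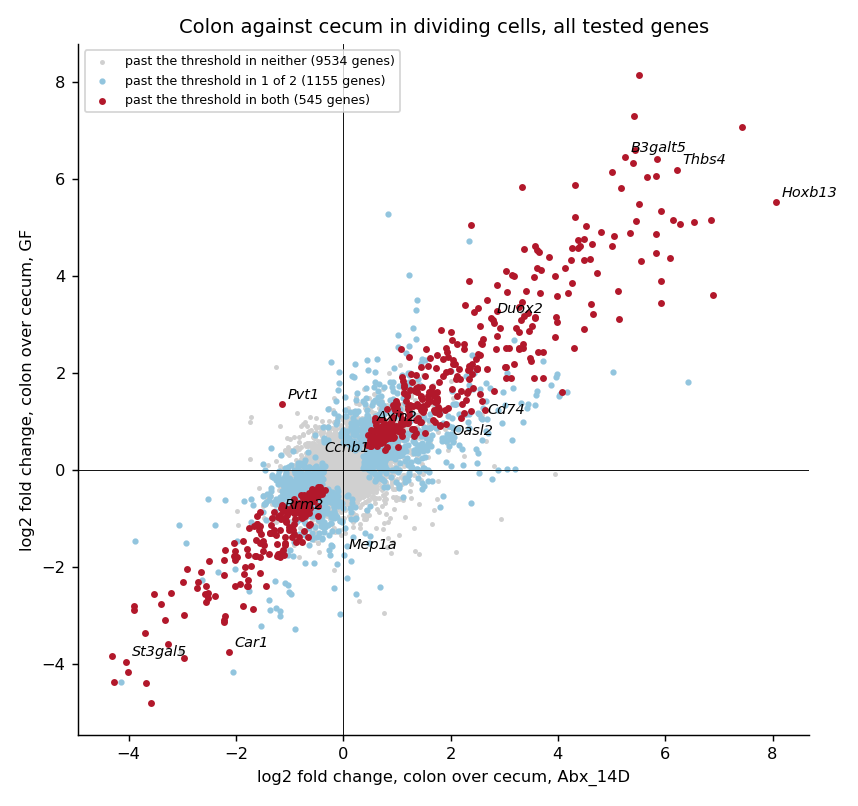
Log2 fold change of colon over cecum in dividing cells for each of 11234 tested genes, in Abx_14D (horizontal axis) and in GF (vertical axis). The 545 genes past the threshold in both (red) lie along the diagonal apart from Pvt1; Hoxb13 and B3galt5 are at the upper right, St3gal5 at the lower left and Ccnb1 near the centre.

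The changes in dividing cells were then set beside those in their neighbours in the crypt, the 1386 S phase cells and the 3035 noncycling Lgr5 cells. Reg3b in Cecum Ctrl averaged 100.4 CPM in dividing cells, 119 CPM in S phase cells and 81.2 CPM in noncycling Lgr5 cells. Mt2 averaged 269, 252 and 209 CPM in the same 3 classes of Cecum GF, and 20.2, 24.2 and 17.7 CPM in those of Cecum Ctrl. Cd74 averaged 3.73, 3.14 and 5.43 CPM in the 3 classes of Cecum GF, and 293, 435 and 507 CPM in those of Ctrl. Thus each gene was high or low in all 3 classes together.

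The test of the difference in change, with the sample as a block, passed for 1 gene in these comparisons. For Abx_14D against Ctrl in the cecum it passed for 0 of 10793 genes against S phase cells and 0 against noncycling Lgr5 cells (0% each, 382 and 526 at an unadjusted p under 0.05, edgeR's quasi-likelihood test and no other tool). For GF against Ctrl it also passed for 0 and 0 (486 and 501 at an unadjusted p under 0.05). For GF against Abx_14D in the colon it passed for 1 of 11521 genes against S phase cells (0.00868%) and 0 against noncycling Lgr5 cells (831 at an unadjusted p under 0.05). The 1 gene was Hsph1, a heat shock protein of the HSP110 family. It averaged 552 ± 207 CPM in dividing cells of Colon GF and 335 ± 64.5 CPM in those of Colon Abx_14D, with 578 ± 210 CPM in S phase cells of GF and 651 ± 101 CPM in those of Abx_14D (SD, n = 4 each). The difference in change was 0.88 ± 0.14 on the log2 scale (adjusted p = 0.0387). No gene passed with TMM scaling or without Colon GF 2, 3 or 4 or Colon Abx_14D 2, 3 or 4, and 2 passed without Colon Abx_14D 1.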

How the data were processed

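Per the labels' protocols, sorted colon and cecum epithelium was processed with the Evercode WT kit of Parse Biosciences, which barcodes cells by splitting and pooling. The values are raw counts of transcripts for each cell and gene, which the authors deposited as 1 matrix with a cell table and a gene table. The submitters' processing notes name Seurat and mm39 with no version or role, and per the file headers the genes are those of GRCm39. No aligner, counter or annotation release is given in the sources used here. The 8 deposited samples are sublibraries, so tissue, condition and number were taken from the sample column of the cell table.

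Cells with at least 500 transcripts were kept. Dividing cells, S phase cells and noncycling Lgr5 cells were chosen as the report describes, and the members and gene lists were chosen with earlier results of these data known. Raw counts of dividing cells were summed per numbered sample (at least 10 cells each) and tested with edgeR 4.0.16 under R 4.3.3 (quasi-likelihood, scaling by library size, filterByExpr, Benjamini-Hochberg at 0.05): the 4 cecal groups in 1 fit, the 2 colon groups in another, and the Abx_14D and GF samples of both tissues in another. The fits were tested on simulated data first. Differences in change between cell classes and between tissues were interaction terms. For shares, exact permutation tests over samples were two-sided (scipy 1.17.1), adjusted over 8 comparisons. Levels are means of CPM per sample with SD; log2 changes have their SE. Where a group held 0 counts of a gene a bound is given against 3 counts over the group, and with 1 to 3 counts a ratio with its 95% interval, both for counting error only.

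Named genes were those past the threshold with at least 20 CPM in the higher group and groups that do not overlap (the 10 largest rises and falls per comparison), up to 4 called members of each list or, with none called, its 2 most abundant, and the rule markers; Slc5a8, Tfrc, Pvt1 and others outside that rule were chosen after their values were seen. Alternatives were TMM scaling, DESeq2 1.42.0, limma-voom (limma 3.58.1), no low-count filter, a replicate block, leaving out each sample, leaving out 4 samples over 0.5% mitochondrial transcripts, at least 20 cells per sample, 5 or 7 markers, no cells with Ptprc, and, since no doublet caller was run, dropping dividing cells above the 95th percentile of transcripts in their sample. Of the kept cells, 907 of 14840 share their well barcodes with a cell of another sublibrary, among them 14 of the 1693 dividing cells; they were kept as separate cells. Same-numbered samples of different groups deviated together (correlation over 0.1) in 10 of 24 cecal pairs and 2 of 4 colon pairs. The mean correlation was 0.0706 for same-numbered and -0.0234 for other cecal pairs, and 0.0627 and -0.0216 for colon pairs. Group means were removed first, which ties the mean of the other pairs to the opposite sign, so it is no separate baseline. Whether the numbers carry a shared factor was not tested. The main fits did not pair samples by number, and the replicate block is the alternative that does. Some genes are not reported here.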

Additional observations from a re-analysis of the deposited data

Results flagged for a closer look

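Among 192 groups of 4 samples checked for 1 sample far from the other 3, 18 stood out. Chance gives about 1 in 20 where values are normally distributed, which counts near 0 are not. All values are in dividing cells. In Cecum Abx_4D, Plet1 was highest in sample 1 at 7.21 CPM (2.84 to 3.59 in the others), Oasl2 was highest in sample 3 at 84.0 CPM (11.4 to 14.1), and Car1 was lowest in sample 1 at 280.3 CPM (1352 to 1478). In Cecum Abx_14D, Nos2 was highest in sample 1 at 3.89 CPM (0.399 to 0.889), while Reg3b and Hoxb13 each stood at 0.222 CPM (1 transcript) in sample 3 and at 0 in the others. A sample with 1 transcript always stands out when the others hold 0.

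In Cecum GF, Cd74 was highest in sample 1 at 6.86 CPM (2.53 to 2.86), and Nos2 stood at 0.266 CPM (1 transcript) in sample 3 and 0 in the others. Sample 4 of Cecum GF had the lowest Ccnb1 at 49.6 CPM (70.7 to 73.5) and the highest Prom1 at 398 CPM (252 to 275). In Cecum Ctrl, sample 1 had the highest Oasl2 at 39.2 CPM (15.1 to 18.4) and the highest B2m at 532 CPM (350.1 to 366). Mt2 was lowest in Ctrl 2 at 5.89 CPM (23.5 to 26.2), and Psmb8 was highest in Ctrl 4 at 31.2 CPM (26.1 to 26.2).

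In Colon GF, Nos2 was highest in sample 4 at 12.7 CPM (1.27 to 2.18) and B2m lowest in sample 3 at 97.4 CPM (135 to 138). In Colon Abx_14D, Reg3b was highest in sample 2 at 9.21 CPM (1.13 to 1.92), and the mitochondrial share of the dividing cells was lowest in sample 1 at 0.205% (0.290% to 0.307%).

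The change of Hsph1 between GF and Abx_14D in the colon differed between dividing and S phase cells by 0.88 on the log2 scale, by the interaction test given above.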

How the results depend on the processing

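Of 301 results for named genes past the threshold, 186 stayed past it under all alternatives and none reversed. By comparison the stable ones were 0 of 4 (Abx_14D against Abx_4D), 20 of 33 (Abx_14D against Ctrl), 7 of 15 (Abx_4D against Ctrl), 0 of 5 (GF against Abx_14D in the cecum), 33 of 56 (GF against Ctrl), 18 of 22 (GF against Abx_14D in the colon), 55 of 94 (colon against cecum, Abx_14D) and 53 of 72 (GF). Counts of genes past the threshold moved more, and the cause was not tested. Without a filter on low counts, 162 genes passed for Abx_4D against Ctrl, 354 for Abx_14D against Ctrl, 630.0 for GF against Ctrl, 232 for GF against Abx_14D, 65 for Abx_14D against Abx_4D and 226 for the colon groups. With DESeq2 these counts were 69, 212, 479, 51, 7 and 101, and limma-voom called 0 for GF against Abx_14D. With the replicate block, 35 passed for Abx_4D against Ctrl, 10 for GF against Abx_14D and 1 for Abx_14D against Abx_4D; the block moved no other count by over 1.5 times. Without the samples over 0.5% mitochondrial transcripts, 45 passed for Abx_14D against Ctrl, 188 for GF against Ctrl, 0 for Abx_14D against Abx_4D and 549 for colon against cecum in Abx_14D, fits with fewer samples. With 7 or more markers, 0 passed for GF against Abx_14D and 0 for Abx_14D against Abx_4D. Without the deepest 5% of dividing cells, 34 passed for Abx_4D against Ctrl and 1 for GF against Abx_14D. For the difference in change from S phase and from noncycling Lgr5 cells, no filter gave 107 and 82 genes for Abx_14D against Ctrl, 113 and 33 for GF against Ctrl, and 88 and 155 for the colon, and TMM scaling gave 0 for the colon against S phase cells.

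Leaving out 1 sample at a time, the counts were 14 to 21 (Abx_4D against Ctrl), 72 to 114 (Abx_14D against Ctrl), 202 to 291 (GF against Ctrl), 0 to 5 (GF against Abx_14D), 0 to 5 (Abx_14D against Abx_4D), 31 to 68 (colon groups), 876 to 1396 (colon against cecum, Abx_14D) and 688 to 1340 (GF). The differences in change gave 0 to 0 and 0 to 1 for Abx_14D against Ctrl, 0 to 0 and 0 to 1 for GF against Ctrl, and 0 to 2 and 0 to 0 for the colon. Differences in share, in percentage points, were -2.34 to 2.14 for Abx_4D against Ctrl, reversed without Abx_4D 3 (-2.34), Ctrl 1 (-0.337) or Ctrl 3 (-2.005). They were 0.250 to 4.40 for Abx_14D against Ctrl, -4.11 to 0.0359 for GF against Ctrl (reversed without Ctrl 2), -5.12 to -3.79 for GF against Abx_14D, 0.301 to 4.76 for Abx_14D against Abx_4D, 2.00 to 2.80 for the colon groups, -11.9 to -10.6 for colon against cecum in Abx_14D and -5.00 to -3.78 in GF. Depth limits the genes near 0 counts, and 18 to 187 dividing cells per sample limit small changes of single genes.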

Other observations

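Colon samples that entered no comparison held few cells. In Colon Abx_4D, dividing cells were 43 of 857 kept cells in sample 1 (5.02%), 4 of 108 in sample 2 (3.70%), 0 of 20 in sample 3, which allows a share of up to 15%, and 1 of 41 in sample 4 (2.44%). In Colon Ctrl, none was found among 5, 38, 3 and 4 kept cells. The 38 cells of sample 2 allow a share of up to 7.89%, which is above most colon shares of the other groups.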
